A study of Homo sapiens with 4 samples.

Results

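The genes described here are 38 genes of nucleolar ribosome biogenesis and of the MYC network, followed in SKOV3 cells, an established human ovarian cancer cell line. They were taken by symbol from 19475 gene symbols, and each symbol was represented by the RefSeq transcript with the highest mean FPKM, the tag count of a transcript scaled by its length and by the size of the library. By role, 3 members belong to the MYC family, 6 are MAX and its repressive partners, and 29 encode nucleolar proteins that make or assemble ribosomes. Of the 38 members, 36 reached 1 FPKM in at least 2 libraries and were tested beside all 11964 genes that did so. MYCN and MYCL did not reach it.

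The study asked how a thin film of a polymer, called polymer X, makes cancer cells grow as spheroids. The 4 mRNA-seq libraries were 2 of SKOV3 cells from an uncoated tissue culture plate at day 0 (TCP) and 2 of SKOV3 spheroids after 8 days on a polymer X-coated plate (polyX). All 4 came from the same cell line, with no gene deleted or drug added according to the labels. The methods describe routine growth in fetal bovine serum and spheroid growth in serum replacement, while the labels give a single protocol with serum replacement for all 4 libraries. Surface, time in culture, cell shape and possibly medium therefore changed together between the groups and cannot be told apart. The methods speak of independent replicates for experiments in general, but nothing says that the 2 libraries of each group came from separate cultures, so p-values measure the spread between these libraries, which may be technical.

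The libraries held between 38405000 and 44919000 tags, as recovered from the FPKM steps and the transcript lengths. Replicates correlated across genes at 0.998 on TCP and 0.997 on polyX, which is a description across genes and not across independent samples. Of the tested genes, 1285 (10.7%) were called higher on polyX and 1131 (9.45%) lower, with a call needing a limma p-value under 0.05 after Benjamini-Hochberg adjustment and a log2 fold change of at least 1 in size. The fold changes given below are differences of log2(FPKM + 1), which understate the change of weakly expressed genes. The median over all tested genes was -0.06.

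Ribosomes are built in the nucleolus. RNA polymerase I transcribes a long precursor of ribosomal RNA there, small nucleolar ribonucleoproteins (snoRNPs) modify it, and separate sets of assembly factors fold and cut it into the small (40S) and large (60S) subunits. The transcription factor MYC, acting as a dimer with MAX on the E-box CACGTG, is known for raising the expression of genes at every one of these steps, and the MXD proteins, MXI1 and MNT compete for MAX and repress through the same letters. In cancer cells this programme is tied to growth, and in bulk RNA fewer cells expressing a gene and less RNA of it per cell cannot be told apart.

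Of the 36 tested members, 23 were called lower on polyX, 2 were called higher, and 11 were not called. The 23 fell among a background of 9.45% of all tested genes called lower, and the 2 among 10.7% called higher. One of the 2, MXD1, entered the test only through its polyX values, where it is high. All 29 nucleolar members were lower at an adjusted p of 1.0e-04 or less (limma, Benjamini-Hochberg), and 21 of them also reached the fold minimum. These 29 genes had log2 fold changes from -2.21 to -0.53 around a median of -1.24. The adjusted p alone was a weak filter in these libraries, since 43.6% of all tested genes passed it in the lower direction and 37.4% in the higher direction.

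MYC, whose product drives growth and ribosome production, had 19.7 and 20.4 FPKM in the TCP libraries and 1.99 and 2.16 FPKM in the polyX libraries. Both polyX values lay far below both TCP values, and the groups were far apart compared with their spread. The mean was 20.0 ± 0.447 FPKM (SD, n = 2) on TCP and 2.08 ± 0.124 FPKM (SD, n = 2) on polyX, which is 9.66-fold lower. On the fitted scale MYC fell by 2.78 (SE 0.07, limma adjusted p 2.1e-09), and only 0.2% of the tested genes had a lower log2 fold change. Its transcript NM_002467 lies on hg19 at chr8:128747680-128755197 and was covered by 359 to 4127 tags per library.

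The other MYC family genes did not pass the filter. MYCN, the neural relative of MYC, was listed at 0 FPKM in 3 libraries and at 0.018 FPKM in polyX replicate 2, which is 2 tags and below the floor of 3. MYCL, the relative first known from lung cancer, had 0.848 and 0.793 FPKM on TCP and 0.729 and 0.589 FPKM on polyX. Both polyX values of MYCL were the lower ones, but the gene, although detected with 78 to 116 tags per library, stayed under 1 FPKM and was not tested. Neither gene rose to the level that MYC had on TCP.

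MAX, the shared partner of MYC and of its competitors, stood at 23.7 and 22.0 FPKM on TCP and at 22.2 and 21.9 FPKM on polyX. By this transcript, NM_001271069, the groups overlapped, and the log2 fold change of -0.05 (SE 0.06) did not pass the test (limma adjusted p 0.47). The sign of this small value turned under quantile normalization (0.17), with all transcripts summed (0.09) and without TCP replicate 1 (0.0042). MAX overlaps FNTB and CHURC1-FNTB on the opposite strand, with a shared span of up to 56555 bases, and the tags were counted without regard to strand, so their tags cannot be told apart where exons coincide. NM_002382, which ends before these genes, had 19.8 and 18.2 FPKM on TCP and 22.7 and 21.5 FPKM on polyX, without overlap. NM_001271068, which also ends before them, had 14.4 and 13.2 FPKM on TCP and 13.2 and 13.3 FPKM on polyX, with overlap. Over the 8 listed transcripts of MAX the log2 fold change ran from -0.05 to 0.21.

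Among the MAX-binding repressors, MXI1 and MXD1 were called higher. MXI1 stood at 12.5 and 12.3 FPKM on TCP and at 43.7 and 41.8 FPKM on polyX. Both polyX libraries were well above both TCP libraries, and the mean rose 3.44-fold, from 12.4 ± 0.168 to 42.7 ± 1.34 FPKM (SD, n = 2 each). Its log2 fold change was 1.70 (SE 0.06, limma adjusted p 9.7e-09), and its 3 listed transcripts lay between 1.66 and 1.75. MXD1, a repressor known from differentiating cells, rose from 0.525 and 0.516 FPKM on TCP to 2.11 and 2.06 FPKM on polyX. That is 4.01-fold in FPKM, but on the fitted scale the change of 1.02 (limma adjusted p 2.1e-06) sat at the fold minimum, and under quantile normalization it was 0.59 and no longer called. MXD1 passed the filter of 1 FPKM in at least 2 libraries only through the polyX group. Its call is therefore not independent of the filter.

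MXD4, another MXD family repressor, and MNT, a widely expressed repressor of MYC targets, moved in the same direction without reaching the fold minimum. MXD4 had 6.36 and 6.37 FPKM on TCP and 13.2 and 12.6 FPKM on polyX. MNT had 3.58 and 3.47 FPKM on TCP and 7.39 and 7.46 FPKM on polyX. For both genes the groups did not overlap. Their log2 fold changes were 0.92 (limma adjusted p 8.6e-07) and 0.90 (1.6e-06), and with a pseudocount of 0.1 in place of 1 both were called, at 1.01 and 1.05.

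MXD3, a repressor of the same family that is known from cycling cells, was the one repressor called lower, and its value depended on which transcript was read. The transcript with the highest FPKM, NM_001142935, had 29.7 and 29.7 FPKM on TCP and 11.4 and 11.2 FPKM on polyX, a log2 fold change of -1.32 (limma adjusted p 4.0e-08). This transcript shares a span of 1460 bases with PRELID1, which encodes a mitochondrial lipid carrier on the opposite strand and itself fell by 1.55 from 116 and 113 FPKM. The shorter transcript NM_031300, which ends before PRELID1, had 8.83 and 8.68 FPKM on TCP and 6.55 and 7.17 FPKM on polyX. By that transcript the groups still did not overlap, but the log2 fold change was -0.31 (limma adjusted p 0.0021) and MXD3 was not called. The members called lower then numbered 22 in place of 23.

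**Figure D1:**
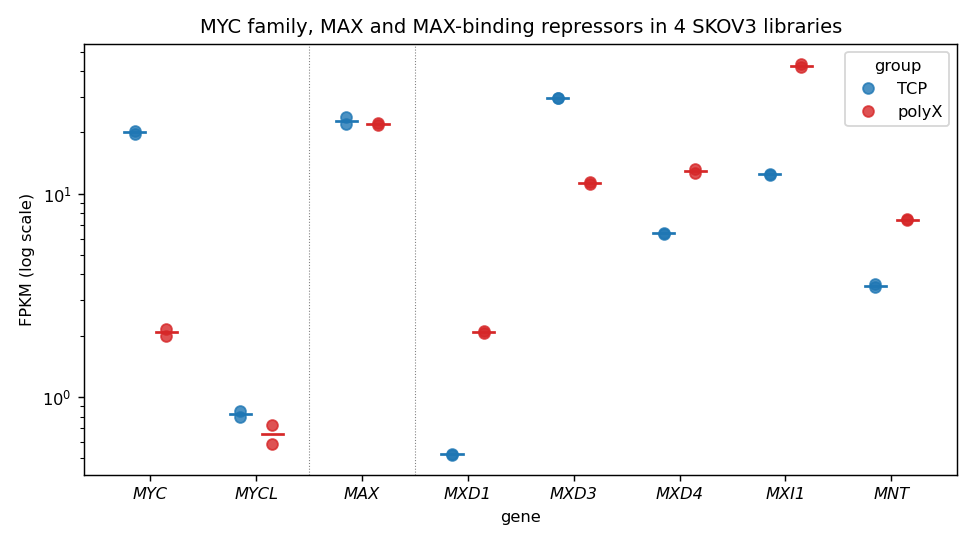
FPKM of the MYC family, MAX and the MAX-binding repressors in each of the 4 libraries, on a log axis; each point is a library (blue TCP, red polyX), and each bar is the mean of 2. MYC stood near 20.0 FPKM on TCP and 2.08 on polyX, MAX stood near 22 FPKM in both, and MXI1, MXD1, MXD4 and MNT were higher on polyX. MAX is drawn by NM_001271069, which overlaps FNTB. MXD3 is drawn by the transcript that overlaps PRELID1, and MYCN is left out because 3 of its 4 values are 0.

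The 5 repressors together had 52.7 and 52.4 FPKM on TCP and 77.7 and 75.1 FPKM on polyX. These sums hold MXD3 by NM_001142935, the transcript that overlaps PRELID1, at 29.7 and 29.7 FPKM on TCP and 11.4 and 11.2 FPKM on polyX. By NM_031300 MXD3 had 8.83 and 8.68 FPKM on TCP, so the TCP sums depend on the transcript read. The log2 of this sum minus the log2 of MYC FPKM was 1.42 and 1.36 on TCP and 5.29 and 5.12 on polyX. By these sums MYC RNA was exceeded by repressor RNA in every library, and by a wider margin on polyX. The size of the margin on TCP also depends on the MXD3 transcript. The difference between groups was 3.81, and 4.46 with MXD3 read by NM_031300. In the same way log2 MYC minus log2 MAX went from -0.27 and -0.11 on TCP to -3.48 and -3.34 on polyX, a difference of -3.22. For the differences of 3.81 and -3.22 the exact two-sided permutation test over 4 libraries gave 0.33, the smallest p that 2 against 2 allow. The value of 4.46 was not tested.

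The nucleolar scaffold and chaperone list held the most abundant members, NCL and NPM1. NCL, which encodes nucleolin, an RNA-binding protein of the nucleolus, had 451 and 450 FPKM on TCP and 196 and 187 FPKM on polyX. NPM1, encoding the histone and ribosome chaperone nucleophosmin, had 334 and 298 FPKM on TCP and 121 and 122 FPKM on polyX. NOLC1, encoding a chaperone of snoRNPs, had 28.9 and 29.1 FPKM on TCP and 9.54 and 8.40 FPKM on polyX. In each of the 3 genes both polyX values lay more than 2-fold below both TCP values. All 3 fell, NCL by 1.23, NPM1 by 1.37 and NOLC1 by 1.59 on the log2 scale, with limma adjusted p-values of 1.0e-07, 1.1e-07 and 4.4e-08. NPM1 has near-identical processed pseudogenes, so its tag count is uncertain.

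The 5 snoRNP core proteins all fell, with a median of -1.41. These proteins carry the box C/D guides that methylate ribosomal RNA (FBL, the methyltransferase, with NOP56 and NOP58) or the box H/ACA guides that make pseudouridine (DKC1, the enzyme, with NHP2). DKC1 changed most, from 54.8 and 53.1 FPKM on TCP to 16.8 and 16.2 FPKM on polyX, a log2 fold change of -1.65 (SE 0.06, limma adjusted p 1.0e-08). NOP56 went from 103 and 101 FPKM to 37.3 and 35.5 FPKM (-1.46), and NOP58 from 71.9 and 71.1 FPKM to 26.0 and 26.4 FPKM (-1.41). FBL (-1.27) and NHP2 (-1.22) fell less. The groups of all 5 genes were apart in every library.

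The ratios between partners of one particle differed in how they moved. NOP56 over NOP58 was 1.44 and 1.42 on TCP and 1.43 and 1.34 on polyX, so the first polyX value lay within the TCP range. FBL over NOP58, from the same particle, was 1.45 and 1.37 on TCP and 1.53 and 1.62 on polyX, with both polyX values above both TCP values. DKC1 over NHP2 was 0.982 and 1.05 on TCP and 0.767 and 0.720 on polyX. In that pair both polyX values lay below both TCP values, since DKC1 had the greater fall. These ratios are of FPKM, which is per length of transcript, and no test was run on them.

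The PeBoW complex, made of PES1, BOP1 and WDR12, is needed to mature the large subunit, and its 3 genes were unequal. BOP1 had 6.83 and 6.81 FPKM on TCP and 1.41 and 1.83 FPKM on polyX, a fall of 1.58 (SE 0.09, limma adjusted p 2.5e-07). WDR12 had 15.9 and 15.2 FPKM on TCP and 6.54 and 5.66 FPKM on polyX, a fall of 1.22 (limma adjusted p 4.3e-07). PES1 had 49.1 and 49.3 FPKM on TCP and 28.9 and 29.1 FPKM on polyX, lower by adjusted p (1.1e-06, limma) at -0.74 but not called. PES1 over BOP1 was therefore 7.19 and 7.24 on TCP and 20.5 and 15.9 on polyX, and PES1 over WDR12 was 3.09 and 3.25 on TCP and 4.42 and 5.15 on polyX.

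Of the 7 members listed as other large-subunit assembly factors, 6 were called lower and the median was -1.34. DDX21, NIP7 and LYAR in this list are not confined to the large subunit. The medians of this list and of the small-subunit list therefore do not separate the subunits. DDX21, a helicase that works both in ribosomal RNA transcription and in its processing, had the greatest fall of the nucleolar members. It stood at 49.5 and 49.9 FPKM on TCP and at 10.8 and 9.19 FPKM on polyX, and the mean was 4.98-fold lower on polyX. Its log2 fold change was -2.21 (SE 0.07, limma adjusted p 9.8e-09). NIP7, a factor of pre-ribosomal RNA processing, went from 25.03 and 23.7 FPKM to 6.85 and 6.08 FPKM (-1.76), and LYAR, a nucleolar zinc finger protein, from 25.004 and 26.7 FPKM to 7.54 and 7.72 FPKM (-1.64). In these 3 genes the polyX libraries lay far below the TCP libraries, with no overlap. The ribosomal RNA methyltransferase NOP2 (-1.34), RRP1B (-1.24), a nucleolar partner of protein phosphatase 1, and NOP16 (-1.12), a factor of the 60S precursor, also fell. GNL3, which encodes the nucleolar GTPase nucleostemin, was lower by adjusted p (6.5e-07, limma) at -0.91 and was not called.

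Of the 7 small-subunit assembly factors, 5 were called lower and the median was -1.15. BYSL, encoding bystin, a late factor of the 40S precursor, had 22.5 and 20.7 FPKM on TCP and 6.19 and 6.30 FPKM on polyX (-1.64). UTP20, a large scaffold of the small-subunit processome, had 10.5 and 10.7 FPKM on TCP and 2.83 and 2.60 FPKM on polyX (-1.64). DDX10, a helicase, had 8.85 and 9.42 FPKM on TCP and 2.86 and 2.49 FPKM on polyX (-1.46). All 3 were lower in both polyX libraries than in either TCP library by more than their spread. RRP9 (-1.15), which is the U3 snoRNP protein, and NOP14 (-1.07), a member of the same processome as UTP20, also fell. UTP15 (-0.97), a processome subunit that also supports ribosomal DNA transcription, and RRP12 (-0.89), an export factor of the precursors, passed the adjusted p but not the fold minimum, and with a pseudocount of 0.1 both were called, at -1.27 and -1.09.

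The 4 genes of RNA polymerase I transcription changed least among the nucleolar roles, with a median of -0.72 and no call. POLR1A, the largest subunit, had 10.6 and 11.3 FPKM on TCP and 5.68 and 4.72 FPKM on polyX (-0.95). UBTF, which encodes the factor that bends and opens the ribosomal DNA, had 45.5 and 49.1 FPKM on TCP and 29.4 and 28.0 FPKM on polyX (-0.70). RRN3, the factor that recruits the polymerase, had 18.0 and 18.9 FPKM on TCP and 11.5 and 9.80 FPKM on polyX (-0.75). The groups did not overlap in any of these genes. POLR1B, the second-largest subunit, had the smallest change of all nucleolar members, -0.53 (SE 0.07, limma adjusted p 1.0e-04), with 7.40 and 6.98 FPKM on TCP and 4.88 and 4.43 FPKM on polyX. POLR1A over POLR1B was 1.43 and 1.62 on TCP and 1.16 and 1.07 on polyX, lower in both polyX libraries, and was not tested. RRN3 has near-identical duplicated copies, so its tag count is uncertain.

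**Figure D2:**
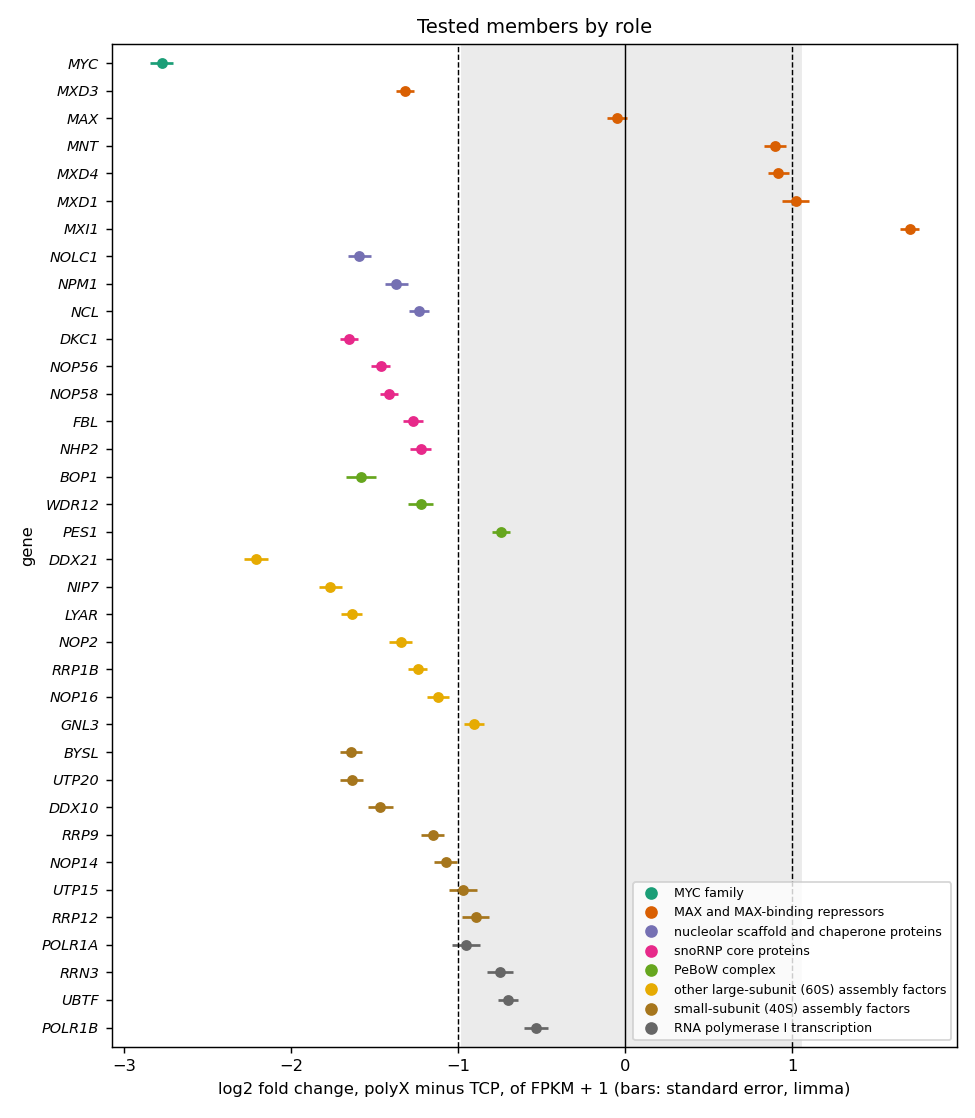
Log2 fold change of FPKM + 1, polyX minus TCP, of the 36 tested members, ordered by role; points are limma estimates, bars are their standard errors, dashed lines mark the fold minimum of 1, and the grey band runs from the 10th to the 90th percentile of all tested genes (-0.98 to 1.05). All 29 nucleolar members lie left of 0, from -2.21 (DDX21) to -0.53 (POLR1B), and 4 of the 5 MAX-binding repressors lie right of it.

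Read by library, both polyX values lay below both TCP values in all 29 nucleolar members, in MYC and in MXD3, which makes 31 of the 36 tested members. Over all tested genes 48.4% showed that order and 41.9% the reverse. The 4 members with the reverse order were MXI1, MXD1, MXD4 and MNT, and MAX, by NM_001271069, showed neither. Summed over the 29 nucleolar members, the level was 1653 and 1604 FPKM on TCP and 664 and 644 FPKM on polyX, which is 2.49-fold lower. They made up 0.527% and 0.529% of all summed FPKM on TCP and 0.239% and 0.237% on polyX. NCL and NPM1 alone accounted for 0.250% and 0.247% on TCP and 0.114% on each polyX library. The transcripts of 9 members share a span with the transcript of a gene on the opposite strand, and tags with it where exons coincide. They are MYCN, MAX, MXD3, NOP56, BOP1, WDR12, NOP16, NIP7 and GNL3. The span differed widely, with 4 bases for NOP56, 9 for WDR12, 11 for GNL3, 112 for NIP7, 402 for NOP16 and 1460 for MXD3. MYCNOS, which overlaps MYCN, was at 0 FPKM in every library, and SCX, which overlaps BOP1, at most at 0.074 FPKM. HIGD2A, which overlaps NOP16, had 33.8 and 31.9 FPKM on TCP and 22.6 and 20.9 FPKM on polyX.

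**Figure D3:**
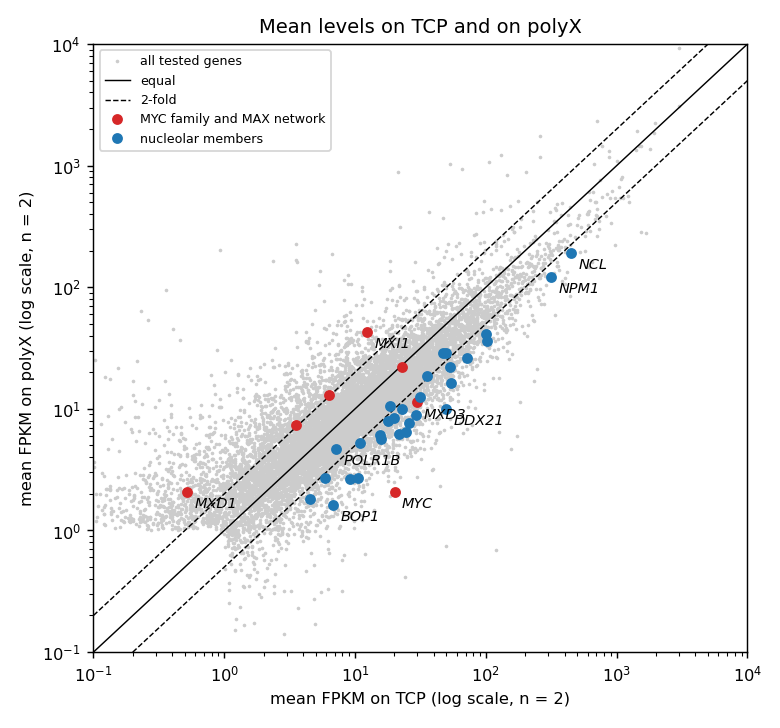
Mean FPKM of 2 libraries on TCP (x axis) against polyX (y axis), both on log scales, for all tested genes (grey), the tested MYC family and MAX network members (red) and the nucleolar members (blue); the solid line marks equal levels, the dashed lines 2-fold differences, and genes under 0.1 FPKM in either mean lie outside the axes. The nucleolar members sit below the line of equal levels from UTP15 (4.51 FPKM on TCP) to NCL (451 FPKM).

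The promoters are shown because MYC and its competitors bind the letters CACGTG. The E-box was searched in the window from 250 bases before to 50 bases after each RefSeq start (GRCh38.p14). These letters are their own reverse complement, so that a match holds for both strands, and no other motif was searched. An entry existed for 32 of the 38 members. It held the letters in 12 of them (37.5%), namely DDX21, BYSL, UTP20, LYAR, NOP2, FBL, RRP9, NOP14, GNL3, PES1, MXD4 and MNT. These members are counted by symbol, with a match in at least 1 window. Counted in the same way, 8.77% of all 27305 symbols and 12.5% of the 9551 tested genes with an entry held the letters. Counted by window, 7.26% of all 35116 windows did.

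The share was 13.9% among the tested genes called lower, 12.8% among those called higher and 12.3% among those not called. Of the 24 nucleolar members with an entry 10 (41.7%) held the letters, and of the 5 MAX-binding repressors 2 did. A match is a description of the sequence and not a measured binding site. NCL, NPM1, NIP7 and DKC1 fell and have no match in the window, which says nothing of binding elsewhere.

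MYC, NOLC1, BOP1, NOP58, RRP1B and RRP12 had no entry and were not searched. Among the members searched, the 6 with a match and the largest changes are given 5′ to 3′ on the strand of the gene with the E-box in capitals. They are DDX21 at chr10:68956604-68956633 (plus strand, motif beginning at -31 from the start), BYSL at chr6:41921515-41921544 (plus, 29), UTP20 at chr12:101280083-101280112 (plus, -10), LYAR at chr4:4290068-4290097 (minus, -64), NOP2 at chr12:6568242-6568268 (minus, 36) and FBL at chr19:39846356-39846385 (minus, 7).
DDX21: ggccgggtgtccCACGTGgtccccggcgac
BYSL: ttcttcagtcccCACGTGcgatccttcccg
UTP20: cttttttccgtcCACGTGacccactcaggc
LYAR: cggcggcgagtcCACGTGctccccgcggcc
NOP2: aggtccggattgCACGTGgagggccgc
FBL: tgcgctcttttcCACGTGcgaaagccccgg

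DDX21, the nucleolar member with the greatest fall, has 2 windows from 2 starts, and 1 of them lacks the letters. For the other start, the 250 bases before it (chr10:68956397-68956646, plus strand) hold 1 match, near the downstream end.
DDX21 upstream: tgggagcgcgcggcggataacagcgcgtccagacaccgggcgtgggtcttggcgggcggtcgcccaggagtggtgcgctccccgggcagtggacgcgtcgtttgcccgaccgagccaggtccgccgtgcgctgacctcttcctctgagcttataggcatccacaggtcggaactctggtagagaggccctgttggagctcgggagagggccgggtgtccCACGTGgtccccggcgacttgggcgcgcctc

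The other genes of the same pathways moved the same way with smaller medians. Members and lists were chosen with earlier results of these data known, so the medians are not an independent comparison. Of 138 tested ribosome biogenesis genes outside the members, 42 were called lower, none was called higher, and 88 more were lower by adjusted p alone (limma, Benjamini-Hochberg), with a median of -0.81. Of these genes, 5 were higher by adjusted p alone. They were NOP53, at 0.58, KRR1, IMP3, the polymerase I factor TAF1C, at 0.74, and the snoRNP assembly factor PIH1D1.

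By step, 15 of 48 other small-subunit factors were called lower (median -0.81), led by PNO1 (-1.73), LTV1 (-1.58) and NOL6 (-1.53). Of 48 other large-subunit factors 17 were called lower (median -0.87), led by RRS1, a factor that brings 5S RNA into the precursor, at -2.50, SPATA5 at -1.75 and MRTO4 at -1.60. RRS1 went from 32.5 and 30.7 FPKM on TCP to 4.81 and 4.69 FPKM on polyX, a greater fall than that of any nucleolar member. Of 13 other RNA polymerase I genes 3 were called lower, TCOF1 (-1.91), POLR1E (-1.25) and MYBBP1A (-1.23), and the median was -0.69. TCOF1 encodes treacle, a partner of UBTF at the ribosomal DNA, and its change was greater than those of the 4 polymerase I members.

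Of 13 other snoRNP genes 3 were called lower, RUVBL1 (-1.88) and RUVBL2 (-1.32), the ATPases that help assemble snoRNPs, and GAR1 (-1.36), a core protein of box H/ACA particles. The median of that list was -0.67. Of 16 genes of the RNA exosome and of trimming 4 were called lower, with EXOSC9 (-1.37), EXOSC8 (-1.10) and EXOSC3 (-1.06) lowest and a median of -0.71.

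MYC targets outside ribosome biogenesis were also lower. Of 37 tested genes of that list 20 were called lower, none was called higher, 16 more were lower by adjusted p alone (limma), and the median was -1.08. CDC25A, a phosphatase that starts S phase, had a log2 fold change of -2.16, SRM, the spermidine synthase, of -2.08, and RANBP1 of -2.05. LDHA, the lactate dehydrogenase often listed with them, did not pass the test, with 1536 FPKM on both TCP libraries and 1448 and 1438 FPKM on polyX (-0.09, limma adjusted p 0.29).

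A list of 23 genes held MYC cofactors, regulators of MYC turnover and a few other genes tied to MYC. Of these, 5 were called lower and 1 higher, with a median of -0.30. AURKA (-2.76), a mitotic kinase, and CIP2A (-2.36), an inhibitor of a phosphatase, are known to stabilise MYC family proteins, and SKP2 (-1.44) is a ubiquitin ligase subunit. The 1 called higher was NDRG1, which is neither a cofactor nor a turnover regulator but a gene that MYC is known to repress. It rose from 54.3 and 52.0 FPKM on TCP to 977 and 1067 FPKM on polyX, a log2 fold change of 4.24. The cause of this rise was not tested. Of the 4 other genes of the MAX and MLX network, MLXIPL was at 0.033 and 0.097 FPKM on TCP and at 1.33 and 1.17 FPKM on polyX, a log2 fold change of 1.08. It passed the filter only through the polyX group and had 4 and 14 tags on TCP.

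**Figure D4:**
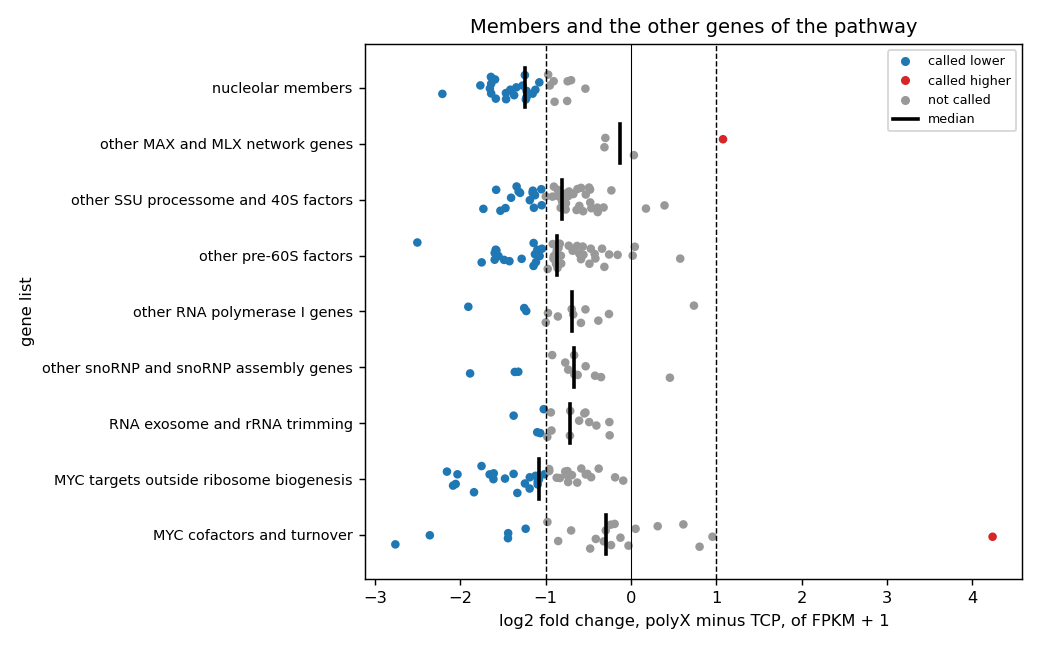
Log2 fold change of FPKM + 1, polyX minus TCP, of each tested gene of the nucleolar members and of 8 lists of related genes; each point is a gene, coloured by its call, black bars are medians, and dashed lines mark the fold minimum of 1. The nucleolar members have the lowest median (-1.24), and the other ribosome biogenesis lists have medians from -0.87 to -0.67. Members and lists were chosen with earlier results of these data known.

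Markers of proliferation moved with these genes. All 17 cell cycle markers were called lower, with a median of -2.00, and PLK1 (-2.90), CCNB1 (-2.72) and MKI67 (-2.61) were lowest. MKI67 went from 42.6 and 45.9 FPKM on TCP to 5.97 and 6.91 FPKM on polyX. The part of cycling in the values of the members was not tested.

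The cell type markers were checked in the same libraries. Of 9 markers of SKOV3 and ovarian epithelium, 6 were tested. ERBB2, PAX8 and EPCAM were called higher on polyX, KRT7, KRT8 and KRT18 were lower by adjusted p alone, and KRT19, WT1 and MUC16 missed the filter. Of 10 markers of other cell types only DCN and COL1A1 were tested, and the list summed to 8.51 and 8.67 FPKM on TCP and 12.6 and 11.4 FPKM on polyX. DCN, a fibroblast proteoglycan, was listed at 0.025 and 0 FPKM on TCP and at 7.26 and 6.20 FPKM on polyX, while COL1A1 was lower on polyX. The blood marker PTPRC stood at 0.468 and 0.530 FPKM and the endothelial marker PECAM1 at 0.573 and 0.458 FPKM on polyX, and the T cell marker CD3E was listed at 0 in all 4 libraries. Their part in the values of the members was not tested.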

How the data were processed

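Messenger RNA was purified and sequenced by the authors in 4 SKOV3 libraries. The authors deposited FPKM values per RefSeq transcript on hg19, which HOMER computed from tags on exons of either strand per the file headers. STAR 2.4.0 is listed in the submitters' processing notes. The command also names libraries on other surfaces, which are not analysed here.

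Each symbol was given its transcript with the highest mean FPKM. Genes with at least 1 FPKM in at least 2 libraries were fitted as log2(FPKM + 1) in limma 3.58.1 (R 4.3.3, mean-variance trend, Benjamini-Hochberg adjustment over 11964 genes). The fit was checked on simulated data in which far fewer genes changed than in these libraries. That check does not test the calls made here. A call needed an adjusted p under 0.05 and a log2 fold change of at least 1 in size. Tags per library were recovered from the FPKM steps and the lengths, and a floor of 3 tags was used. The replicates of a group differed by more than counting error. The mean chi-square per gene was 5.43 on TCP and 6.16 on polyX, against about 1 for counting error alone. Single values across libraries were tested by exact two-sided permutation (python 3.11.15).

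The members and lists were chosen with earlier results of these data known. All 38 members are named. FPKM of every library is given for the MYC and MAX genes and, in each other role, for the 3 largest changes and the highest level. In related lists at most 3 rises and 3 falls lead. LDHA, the genes higher by adjusted p alone, the further transcripts of MAX and the library values of POLR1B and of markers lie outside this rule. They were chosen after their values were seen.

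Same-numbered libraries deviated together at a correlation of 0.093 and were not treated as pairs. Alternatives covered the pseudocount, the filter, the scaling, the transcripts, the variance model, the fold minimum, a replicate block and leaving out each library. Reading MXD3 by NM_031300 was added after seeing the data.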

Additional observations from a re-analysis of the deposited data

How the results depend on the processing

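Over the alternatives that kept the fold minimum of 1, 443 of the values of the tested members kept their direction and side of the call, 11 became called, 7 lost the call and 3, all of MAX, turned sign (0.17 with quantile normalization, 0.093 with transcripts summed, and 0.0042 without TCP replicate 1, in a range from -0.102 to 0.0042 with each library left out). Quantile normalization accounted for 6 lost calls (MXD1 at 0.59, NCL, FBL, NHP2, NOP16 and NOP14 between -0.99 and -0.95) and turned the median of the other MAX and MLX genes to 0.057. Reading MXD3 by NM_031300 accounted for the other (-0.31). With that minimum kept, UTP15, RRP12, POLR1A, MXD4 and MNT became called under at least 1 alternative. MXD1, BOP1, UTP15 and RRP12 have no value with mean FPKM no lower than 5. The cause was not tested except where the transcript read sets it. Many of the 443 values could not have changed direction. Dropping the filter, a replicate block and no variance trend leave each member's fold change as it was. Reading MXD3 by NM_031300 alters MXD3 alone, and summing transcripts leaves members with 1 listed transcript as they were.

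The median of the nucleolar members was -1.30 with a pseudocount of 0.1, -1.06 with quantile normalization and -1.29 to -1.23 with each library left out. That of the MAX-binding repressors was 1.05, 0.83 and 0.90 to 0.94, and 0.95 with median scaling. The balance of repressors and MYC was 4.11 with quantile normalization, 4.25 with transcripts summed, 4.46 with MXD3 by NM_031300 and 3.73 to 3.90 with each library left out. Summing counts tags shared between transcripts of a gene more than once. The value of 4.25 therefore depends on the number of listed transcripts, which is 3 for MXI1 and MXD1 and 1 for MXD4 and MNT.

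Members called higher numbered 4 with a pseudocount of 0.1, 1 with mean FPKM no lower than 5, 1 with quantile normalization, 4 with no fold minimum and 0 with a fold minimum of 2, against 2; members called lower numbered 2 with a fold minimum of 2, namely MYC and DDX21. Leaving out each library gave 2 members higher and 23 to 25 lower. In the related lists, 2 genes were called higher and 67 lower, against 1 higher with mean FPKM no lower than 5, 11 and 183 with no fold minimum, and 1 and 7 with a minimum of 2. Over all tested genes 702 were called higher under that filter, where 42.2% of calls were higher against 53.2%. With no fold minimum 4477 were higher and 5212 lower, and with a minimum of 2 281 and 150. Leaving out each library gave 1289 to 1325 higher and 1053 to 1234 lower, with the lone sample assumed to vary like the other group.

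A replicate block left 1285 genes called higher and 1131 lower and the members at 2 and 23. Depth limits the statement on MYCN, which had at most 2 tags per library.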
